A study of Rattus norvegicus with 24 samples.

Results

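The genes described are 10 rat genes of pulmonary surfactant and the lamellar body, the organelle in which alveolar type 2 cells store surfactant. They were taken by symbol as a given list of type 2 cell genes: Sftpa1, Sftpb, Sftpc, Sftpd, Abca3, Lamp3, Napsa, Lpcat1, Slc34a2 and Etv5. They are 10 of 30043 genes in the count table, and all 10 were among the 13322 genes that passed the filter on low counts. Surfactant is a film of phospholipid and protein that lowers surface tension in the alveolus. The hydrophobic proteins SP-B and SP-C spread the lipid, and the collectins SP-A and SP-D bind microbes and particles. Type 2 cells make the lipid, pack it with SP-B and SP-C into lamellar bodies, secrete it and take part of it up again, while macrophages clear the rest.

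RNA was sequenced from a piece of lung of 24 male Fischer 344 rats, bought at 3 months of age, over a study of 29 weeks with 6 animals in each of 4 groups. The combined group breathed crystalline silica (Min-U-Sil5) and cigarette smoke, the silica group silica, the smoke group cigarette smoke, and the air group air throughout, all in whole-body chambers. Silica was given at 15 mg/m3 for 6 hours a day on 5 days of week 3. Smoke was given for 3 hours a day on 2 days a week at 80 mg/m3, after a first week at 45 mg/m3 in the combined group and 40 mg/m3 in the smoke group, which breathed air in week 3. The question is how a short silica exposure, smoke and their combination change the lung's gene expression. The labels name no batch.

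Of the 24 libraries, 22 held between 1084815 and 4687805 counts, the library labelled silica 4 held 280484 and smoke 2 held 21629. In smoke 2, haemoglobin genes took 56.0% of counts, against 0.249% to 1.54% in the other 23 libraries, and the 10 genes together had 38 counts, so ranges of the smoke group are given for the other 5 libraries while the tests used all 6. The library labelled silica 1 lay within the air range for Sftpa1, Lamp3 and Napsa and below every air library for Sftpd and Lpcat1, the 5 genes that rose. The library labelled smoke 1 lay above every air library for all 5, and within the range of the other 5 silica lungs for Sftpd and Napsa. For Sftpa1, Lamp3 and Lpcat1, smoke 1 lay below all of those 5 silica lungs. Why silica 1 and smoke 1 stand apart from their groups, and whether their labels were exchanged, was not tested. The calls of the 10 genes are therefore also given without these libraries. Air 6 had a low quality weight (0.269) in limma voom. Levels are counts scaled to a common library size (CPM) by the trimmed mean of M-values (TMM), and a call is a Benjamini-Hochberg adjusted p under 0.05 in edgeR's quasi-likelihood test over all 13322 genes.

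In the lungs that received silica and smoke, 5 of the 10 genes rose against air: Sftpa1, Sftpd, Lamp3, Lpcat1 and Napsa, by 1.79-fold to 2.28-fold. None fell. Sftpb, Sftpc, Abca3, Slc34a2 and Etv5 were not called, with log2 differences from -0.09 to 0.28. Of all genes tested in this comparison, 11.6% were called higher, 10.8% lower and 22.4% in either direction. Every combined library lay above every air library for 5 of the 10 genes, against 6.37% of genes tested. They were the same 5 genes that were called, from the same libraries, so this adds no separate support. In a piece of whole lung, more cells of a type and more RNA per cell cannot be told apart. The median log2 difference was 0.56 over the 10 genes and -0.01 over all genes tested.

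**Figure D1:**
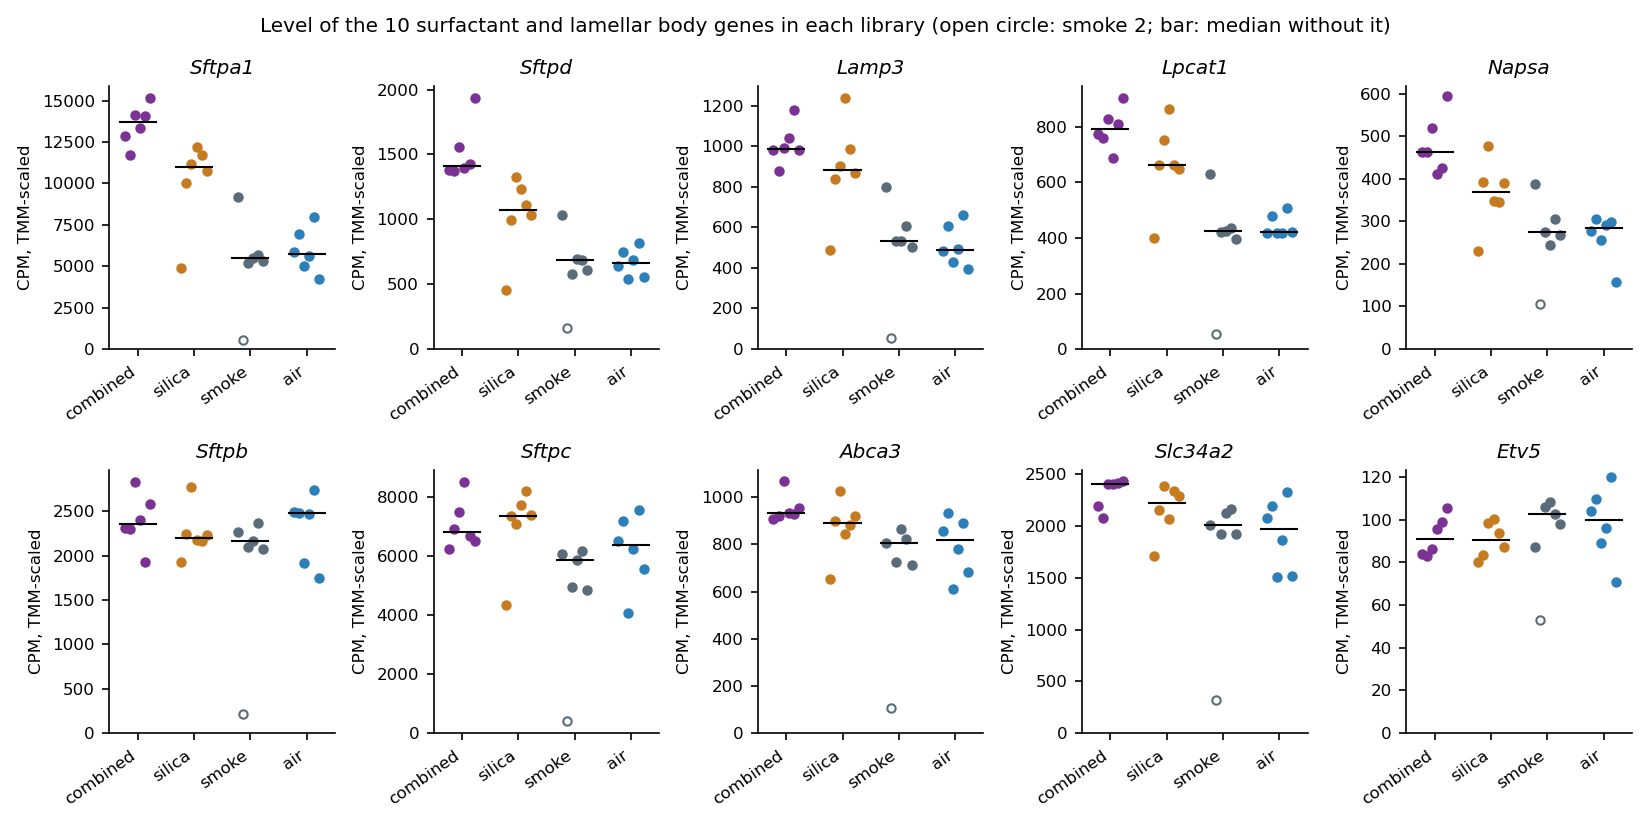
Level of each of the 10 genes in every library (vertical axis, TMM-scaled CPM, linear from 0) for the combined, silica, smoke and air groups (horizontal axis), with 1 point per animal, an open circle for smoke 2 and a bar at the group median without it. Sftpa1 lies between 11684 and 15147 CPM in combined lungs, against 4228 to 7964 CPM in air lungs, while for Sftpb the combined and air libraries share 1 range.

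In combined lungs against air and against smoke, the collectins had the largest log2 differences of the 10 genes. Sftpa1 encodes surfactant protein A1, the most abundant surfactant protein, which opsonises microbes and takes part in the structure of secreted surfactant. Sftpa1 had 11684, 13695 and 15147 CPM (lowest, median and highest) in combined lungs, 4904, 10962 and 12177 CPM in silica lungs, 5222, 5492 and 9181 CPM in smoke lungs and 4228, 5715 and 7964 CPM in air lungs. All combined libraries were above all air and all smoke libraries, and silica overlapped both. The lowest silica value was silica 1 and the highest smoke value smoke 1. The log2 difference of combined from air was 1.19 ± 0.31 (standard error; edgeR adjusted p = 0.0056).

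Sftpd encodes surfactant protein D, a collectin that binds carbohydrate on microbes and is known in mice to control the surfactant pool. Sftpd had 1369, 1409 and 1938 CPM (lowest, median and highest) in combined lungs, 455, 1071 and 1323 CPM in silica lungs, 579, 687 and 1034 CPM in smoke lungs and 541, 663 and 814 CPM in air lungs. It was the only one of the 10 genes for which every combined library also lay above every silica library, a pattern found for 0.743% of genes tested. The log2 difference of combined from air was 1.19 ± 0.19 (edgeR adjusted p = 5.54e-05). The lowest silica value was again silica 1 and the highest smoke value smoke 1.

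The hydrophobic surfactant proteins were not called, unlike the collectins. Sftpb encodes SP-B, which is essential for lamellar body formation and surface film spreading. Sftpb had 1924, 2358 and 2835 CPM in combined lungs, 1926, 2204 and 2771 CPM in silica lungs, 2070, 2166 and 2370 CPM in smoke lungs and 1748, 2477 and 2739 CPM in air lungs. All 4 groups overlapped, and the combined minus air log2 difference was 0.05 ± 0.20 (edgeR adjusted p = 0.902). Sftpc, which encodes SP-C and is the classic marker of type 2 cells, had 6250, 6810 and 8514 CPM in combined lungs, 4345, 7373 and 8206 CPM in silica lungs, 4850, 5855 and 6186 CPM in smoke lungs and 4063, 6370 and 7577 CPM in air lungs. Its combined minus air log2 difference was 0.19 ± 0.28 (edgeR adjusted p = 0.68). Neither test shows that the levels were alike, and a log2 shift of the size of these standard errors was not detectable.

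Among the genes of the lamellar body, Lamp3 rose and Abca3 was not called. Lamp3 encodes a lysosome-associated membrane protein of the lamellar body's limiting membrane; the same protein also marks mature dendritic cells. Lamp3 had 876, 987 and 1177 CPM in combined lungs, 487, 885 and 1238 CPM in silica lungs, 504, 533 and 801 CPM in smoke lungs and 395, 488 and 660 CPM in air lungs. All combined libraries were above all air and all smoke libraries, and the combined minus air log2 difference was 0.98 ± 0.17 (edgeR adjusted p = 0.000162). Of all genes tested in this comparison, 11.6% were called higher. Of 5 tested markers of mature dendritic cells other than Lamp3, 1 rose, Cd83, by 0.72 ± 0.18 (edgeR adjusted p = 0.00372). The other 4 were not called, and the median log2 difference of the 5 was -0.10. Mean levels were lower in combined than in air lungs for Ccr7, Fscn1 and Zbtb46 and higher for Flt3. Ccl17 and Ccl22, which did not pass the filter on low counts, were also higher. Their means were 1.47 and 2.37 CPM in combined and 0.553 and 0.218 CPM in air lungs. The summed level of that list, which includes the untested Ccl17 and Ccl22, was 97.1 to 131 CPM in combined and 78.9 to 111 CPM in air lungs. The part of those cells in the Lamp3 difference was not tested.

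Abca3 encodes the lipid pump that fills lamellar bodies with phospholipid. Abca3 had 909, 931 and 1067 CPM in combined lungs, 653, 889 and 1028 CPM in silica lungs, 714, 807 and 865 CPM in smoke lungs and 612, 819 and 932 CPM in air lungs. The combined and air libraries overlapped, with a log2 difference of 0.27 ± 0.13 (edgeR adjusted p = 0.16). Without smoke 2 in the fit Abca3 was called (adjusted p = 0.0448), and so was Slc34a2 (adjusted p = 0.0388), in a fit that called 24.1% of genes tested.

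Lpcat1 encodes the acyltransferase that remakes the dipalmitoyl phosphatidylcholine of surfactant from its lyso form. Lpcat1 had 687, 792 and 905 CPM in combined lungs, 399, 663 and 865 CPM in silica lungs, 397, 427 and 629 CPM in smoke lungs and 417, 420 and 507 CPM in air lungs. Every combined library exceeded every air and every smoke library. The combined minus air log2 difference was 0.84 ± 0.14 (edgeR adjusted p = 0.000116). Napsa encodes napsin A, an aspartic protease that takes part in cutting the SP-B precursor. Napsa had 411, 464 and 593 CPM in combined lungs, 230, 369 and 477 CPM in silica lungs, 244, 276 and 386 CPM in smoke lungs and 157, 284 and 306 CPM in air lungs. The combined libraries again lay above the air and smoke libraries, and the log2 difference from air was 0.87 ± 0.15 (edgeR adjusted p = 0.000156).

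Slc34a2 encodes the sodium-phosphate cotransporter that takes phosphate released from surfactant lipid back into type 2 cells. Slc34a2 had 2076, 2410 and 2436 CPM in combined lungs, 1712, 2223 and 2384 CPM in silica lungs, 1924, 2012 and 2168 CPM in smoke lungs and 1508, 1971 and 2328 CPM in air lungs. The groups overlapped, and the combined minus air difference was 0.28 ± 0.18 (edgeR adjusted p = 0.276). Etv5 encodes an ETS transcription factor that helps maintain type 2 cell identity in mice. Etv5 had 83.2, 91.0 and 105 CPM in combined lungs, 80.4, 90.7 and 100.5 CPM in silica lungs, 87.3, 103 and 108 CPM in smoke lungs and 70.9, 100.1 and 120 CPM in air lungs, so all groups overlapped. Its combined minus air log2 difference was -0.09 ± 0.10 (edgeR adjusted p = 0.583).

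**Figure D2:**
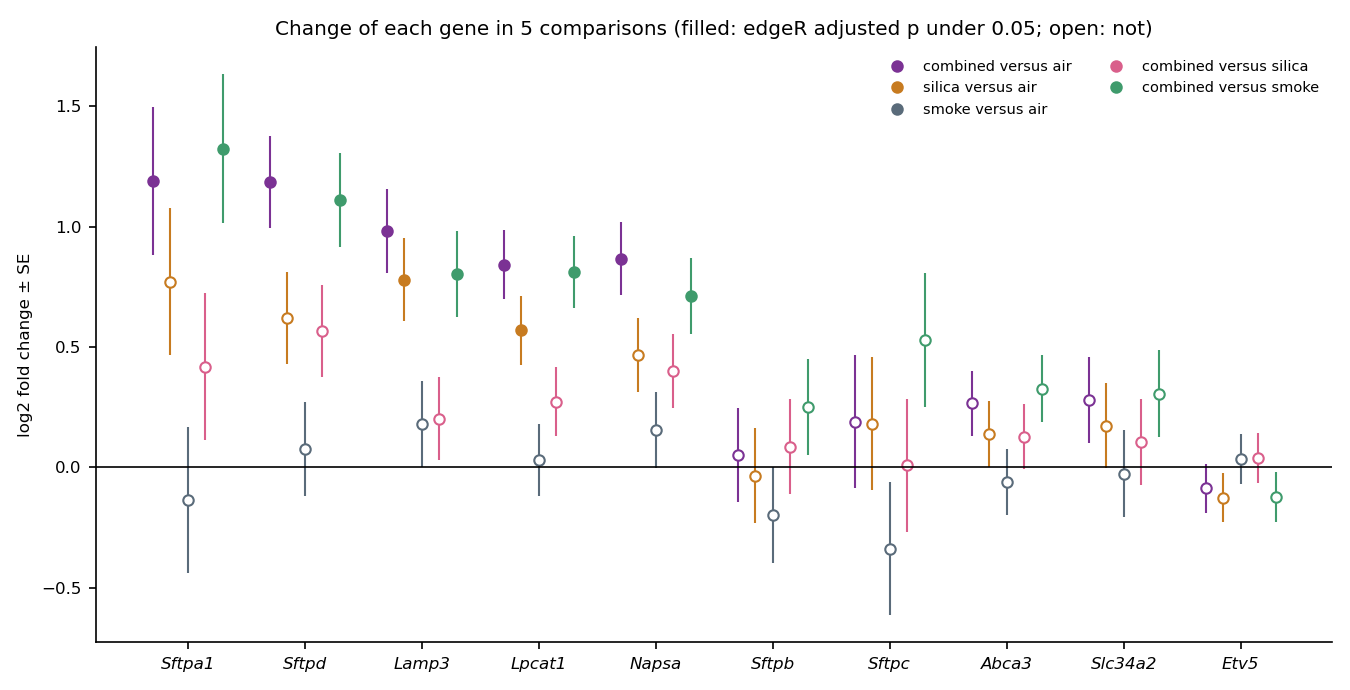
Log2 fold change of each of the 10 genes (points, with bars of 1 standard error) in each comparison, from edgeR's fit to all 24 libraries; filled points have an adjusted p under 0.05. Against air, 5 genes are called in the combined group, 2 in the silica group and 0 in the smoke group.

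The sequences upstream of the genes that rose together are shown beside that of Sftpb, which was not called. Each line gives the 300 bases from 250 before to 50 after the transcription start in the gene's sense direction, from RefSeq's promoter table for assembly GRCr8, which matched 7 of the 10 genes (Sftpa1, Sftpb, Abca3, Lamp3, Lpcat1, Slc34a2 and Etv5). Capitals mark matches, on either strand, to the core CTNNAG of NKX2-1, a homeobox factor of lung epithelium, and to TTNNGNAA of the C/EBP family. The windows are Sftpa1 at chr16:17042014-17042313 (plus strand), Lamp3 at chr11:94697772-94698071 (plus strand), Lpcat1 at chr1:31644897-31645196 (minus strand) and Sftpb at chr4:105917338-105917637 (plus strand).
Sftpa1: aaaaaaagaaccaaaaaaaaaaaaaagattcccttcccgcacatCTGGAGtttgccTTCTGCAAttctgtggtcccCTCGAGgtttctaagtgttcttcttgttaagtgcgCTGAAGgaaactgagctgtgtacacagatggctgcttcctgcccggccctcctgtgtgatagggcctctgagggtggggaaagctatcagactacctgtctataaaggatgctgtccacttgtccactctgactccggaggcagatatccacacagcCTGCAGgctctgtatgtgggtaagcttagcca
Lamp3: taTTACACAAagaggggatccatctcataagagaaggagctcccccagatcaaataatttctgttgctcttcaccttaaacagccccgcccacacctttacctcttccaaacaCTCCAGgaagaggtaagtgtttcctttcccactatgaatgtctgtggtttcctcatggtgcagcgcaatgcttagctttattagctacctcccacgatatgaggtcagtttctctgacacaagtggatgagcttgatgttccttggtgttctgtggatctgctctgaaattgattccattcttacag
Lpcat1: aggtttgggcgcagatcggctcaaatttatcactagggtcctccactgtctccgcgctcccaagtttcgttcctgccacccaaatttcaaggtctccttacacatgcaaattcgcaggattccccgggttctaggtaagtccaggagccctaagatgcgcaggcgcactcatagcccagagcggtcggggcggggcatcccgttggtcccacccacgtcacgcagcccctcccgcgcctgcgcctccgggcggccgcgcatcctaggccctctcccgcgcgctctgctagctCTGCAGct
Sftpb: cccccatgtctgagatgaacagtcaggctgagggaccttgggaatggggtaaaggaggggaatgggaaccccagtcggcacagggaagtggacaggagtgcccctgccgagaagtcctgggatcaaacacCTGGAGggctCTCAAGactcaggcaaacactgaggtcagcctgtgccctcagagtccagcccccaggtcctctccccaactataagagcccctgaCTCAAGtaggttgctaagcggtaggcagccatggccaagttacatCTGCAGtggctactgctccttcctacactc
The NKX2-1 core, which reads the same on both strands, occurs 4 times in the Sftpa1 window, 1 time in Lamp3, 1 time in Lpcat1 and 4 times in Sftpb. Of the other matched genes, Abca3 and Etv5 hold 2 each and Slc34a2 holds 1, so genes that rose and genes that were not called both have it. At least 1 match is held by 78.7% of all 33469 promoters given there. The C/EBP letters occur 1 time each in Sftpa1, Lamp3 and Slc34a2 and are not in the windows of the other 4, against 41.3% of all promoters. A forkhead motif, TGTTTNC, which is not in capitals and shares no base with these matches, was found 1 time each in Sftpb, Lamp3 and Etv5, against 21.1% of all promoters. These are matches of letters and not shown to be bound sites.

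Silica without smoke raised 2 of the 10 genes against air, Lamp3 and Lpcat1, where 2.15% of genes tested were called higher and 3.17% in either direction. For Lamp3, silica exceeded air by 0.78 ± 0.17 (edgeR adjusted p = 0.0134), and for Lpcat1 by 0.57 ± 0.14 (edgeR adjusted p = 0.0278). Sftpa1, Sftpd and Napsa had log2 differences of 0.77 ± 0.31, 0.62 ± 0.19 and 0.47 ± 0.15 but were not called (edgeR adjusted p = 0.16, 0.0662 and 0.0868). Each of Lamp3, Lpcat1, Sftpa1, Sftpd and Napsa overlapped air through the library labelled silica 1, and the other 5 silica libraries lay above all air libraries. Silica 1 was singled out by these same genes, and the share of all genes tested with this pattern was not counted, so it is a description only. The Sftpd level of silica 1 was 455 CPM, the other 5 silica lungs had 997 to 1323 CPM, and air reached 814 CPM. Sftpb, Sftpc, Abca3, Slc34a2 and Etv5 had log2 differences from -0.13 to 0.18.

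With silica 1, smoke 1 and smoke 2 left out of the fit, all of Sftpa1, Sftpd, Lamp3, Lpcat1 and Napsa were called higher in silica than in air, with log2 differences of 0.90, 0.76, 0.89, 0.67 and 0.57 and adjusted p of 0.00408 or less. In that fit 11.8% of genes tested were called in either direction. Silica 1 and smoke 1 were singled out by their levels of these same genes, and silica 1 was the lowest silica library for each. Leaving silica 1 out therefore had to raise the silica mean of each gene, so calls without it are not independent support. Without silica 1 alone 4 of the 10 genes were called, where 8.74% of genes tested were called in either direction, and without smoke 2 alone 4, where 4.17% were. Without smoke 1 alone 3 of the 10 were called, where 3.93% of genes tested were, and without air 5 alone 3, where 4.83% were. Lamp3 was called with each of the 24 libraries left out in turn. Lpcat1 lost its call without air 1, 3 or 4 or without any 1 of silica 2 to 6 (adjusted p up to 0.0758), leaving 1 gene called.

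None of the 10 genes was called in smoke lungs against air by edgeR, and 0.15% of genes tested were called in either direction. DESeq2 and limma voom with quality weights also called 0 of the 10, and 0 had an unadjusted p under 0.05 in edgeR. The log2 differences of smoke from air ran from -0.34 ± 0.28 for Sftpc to 0.18 ± 0.18 for Lamp3. For the collectins they were -0.14 ± 0.30 (Sftpa1) and 0.08 ± 0.19 (Sftpd). Apart from smoke 1, which had 9181 CPM of Sftpa1 and 1034 CPM of Sftpd, and the shallow smoke 2, the smoke lungs lay within the air range for Sftpd and Sftpa1. Without silica 1, smoke 1 and smoke 2, 0 of the 10 were called, where 0.168% of genes tested were.

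Against smoke, the combined group had the same 5 genes higher, where 7.34% of genes tested were called higher and 12.9% in either direction. This comparison shares its combined libraries with the one against air, so the 2 are not independent. The log2 differences were 1.33 ± 0.31 for Sftpa1 (edgeR adjusted p = 0.00562), 1.11 ± 0.20 for Sftpd (0.000757), 0.81 ± 0.15 for Lpcat1 (0.00104), 0.80 ± 0.18 for Lamp3 (0.00416) and 0.71 ± 0.16 for Napsa (0.0042). Sftpc and Abca3 also had every combined library above every smoke library, so 7 of the 10 did, against 4.51% of genes tested. Neither passed the test, with 0.53 ± 0.28 for Sftpc (edgeR adjusted p = 0.214) and 0.33 ± 0.14 for Abca3 (edgeR adjusted p = 0.119). Without silica 1, smoke 1 and smoke 2, both were called (adjusted p = 0.044 for Sftpc and 0.0453 for Abca3), in a fit that called 20.1% of genes tested.

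Against silica, the combined group was not called different for any of the 10 genes, where 0.248% of genes tested were called in either direction. All 10 log2 differences were above 0, from 0.01 for Sftpc to 0.57 ± 0.19 for Sftpd. Silica 1 was the lowest silica library for each of the 10 genes, which lowers every silica mean. The 10 genes also tended to vary together within groups, so the 10 signs are not separate results. The share of all genes tested above 0 was not counted, and their median was -0.002. Before adjustment 2 of the 10 had a p under 0.05 in edgeR, Sftpd (adjusted p = 0.193) and Napsa (0.40 ± 0.15, adjusted p = 0.255). The share of all genes tested that passed this unadjusted threshold was not counted, so the 2 have no background to be read against. Sftpd was called at 0.41 (adjusted p = 0.0301) when air 6, silica 1, smoke 1 and smoke 2 were all left out, a fit that called 0.821% of genes tested. DESeq2 and limma voom called 0 of the 10 in all 24 libraries.

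The interaction asks whether the log2 difference of both exposures from air departs from the sum of the differences of each. It was called for 0 of the 10 genes by edgeR, DESeq2 and limma voom, with 0 at an unadjusted p under 0.05 in edgeR, and edgeR called 0 of 13322 genes. Estimates ran from 0.002 for Etv5 to 0.55 ± 0.43 for Sftpa1, with Sftpd at 0.49 ± 0.27 (edgeR adjusted p = 0.725). Their standard errors are of the size of many of the single-exposure differences, so a departure of that size was not detectable with these libraries.

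Ratios of counts within a library do not depend on how libraries are scaled. They are given as a description, without smoke 2, and a ratio is not a ratio of transcript levels because gene lengths differ. The Sftpa1 to Sftpb count ratio was 4.99, 5.55 and 7.30 (lowest, median and highest) in combined lungs, 2.55, 4.65 and 5.6 in silica lungs, 2.39, 2.54 and 4.06 in smoke lungs and 2.27, 2.52 and 2.91 in air lungs. Combined lungs did not overlap smoke or air lungs, and the lowest silica ratio belonged to silica 1 and the highest smoke ratio to smoke 1. The Sftpd to Sftpb ratio was 0.549, 0.596 and 0.749 in combined lungs, 0.236, 0.470 and 0.566 in silica lungs, 0.276, 0.293 and 0.457 in smoke lungs and 0.256, 0.289 and 0.317 in air lungs. Lamp3 to Abca3 was 0.930, 1.055 and 1.267 in combined lungs, 0.746, 0.939 and 1.47 in silica lungs, 0.616, 0.735 and 0.992 in smoke lungs and 0.562, 0.641 and 0.742 in air lungs. Slc34a2 to Sftpc, both not called, overlapped in all groups, at 0.283 to 0.375 in combined, 0.268 to 0.394 in silica, 0.332 to 0.397 in smoke and 0.273 to 0.371 in air lungs. Some ratios of a called gene to Sftpc overlapped too. Lpcat1 to Sftpc was 0.081 to 0.139 in combined and 0.064 to 0.103 in air lungs. Napsa to Sftpc was 0.048 to 0.091 in combined and 0.028 to 0.063 in air lungs. Sftpa1, Sftpd and Lamp3 to Sftpc did not overlap between combined and air lungs. The pairs were picked with earlier results known.

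**Figure D3:**
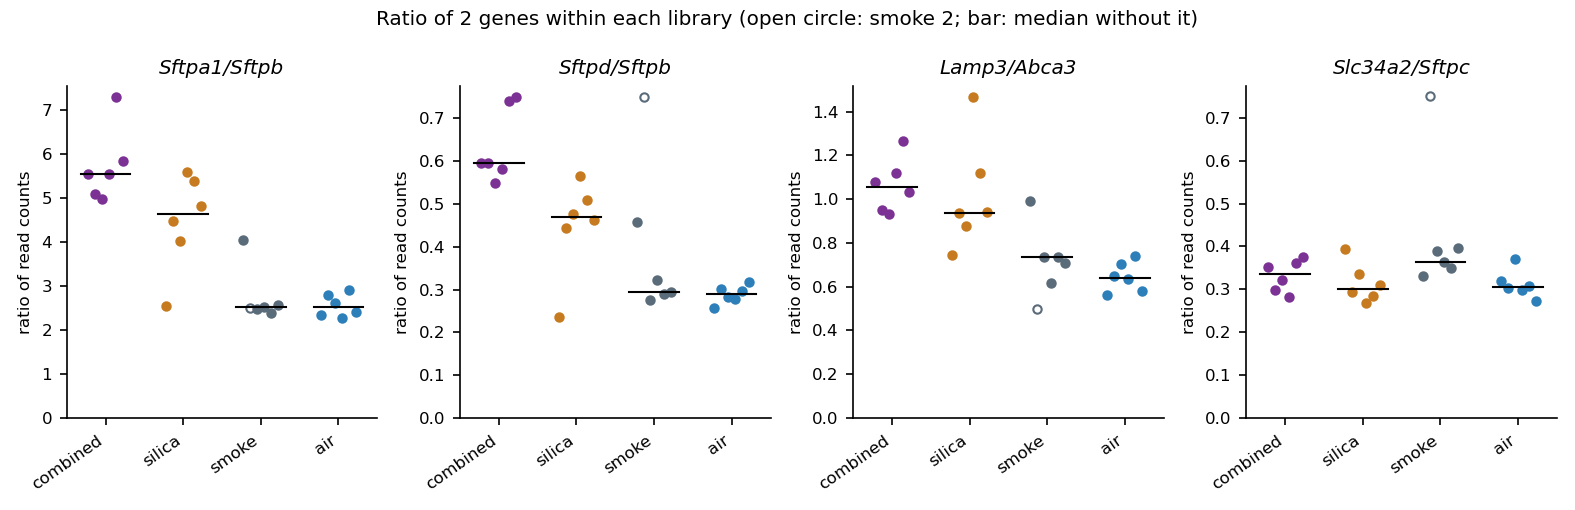
Ratio of the counts of a pair of genes within each library (vertical axis, no unit, linear from 0) by group, with 1 point per animal, an open circle for smoke 2 and a bar at the median without it. The ratios of Sftpa1 and Sftpd to Sftpb and of Lamp3 to Abca3 are higher in every combined than in every air library, and Slc34a2 to Sftpc overlaps between groups.

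Within groups the 10 genes tended to vary together. Over 23 libraries, leaving out smoke 2, Spearman's rho of deviations from the group mean (log2 CPM) ran from 0.293 to 0.919 over 45 pairs, with a median of 0.662. Without silica 1, smoke 1 and air 6 as well the range was -0.033 (Sftpc with Napsa) to 0.844 (Sftpa1 with Lamp3), with a median of 0.534. The libraries share tissue sampling and scaling, so these values are descriptive. The spread within groups was 0.176 for Slc34a2 and Etv5 and up to 0.359 for Sftpd (SD of log2 CPM).

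Outside the list, the genes whose levels over those 23 libraries ranked most like Sftpa1 were Lyz2 (Spearman's rho 0.980), C4bpa (0.977) and Ctsh (0.971). For Sftpd they were Fetub (0.969), Atp11a (0.968) and C4bpa (0.966), for Lamp3 Acsl4 (0.973), Dram1 (0.968) and Pigr (0.965), and for Lpcat1 Fnip2 (0.958), Dram1 (0.955) and Snx25 (0.955). Napsa was most like Psap (0.988), Ctsz (0.982) and Atp6v1b2 (0.979). The 5 genes that were not called against air had lower best matches, namely Por with Sftpb (0.808), Fam55b with Sftpc (0.873), Ftl1 with Abca3 (0.902), Lgi3 with Slc34a2 (0.863) and Susd2 with Etv5 (0.794). Unlike the deviations above, these levels include the differences between groups. Genes called between groups share such a shift with many other genes, so their higher best matches follow from the calls and are no separate result.

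Among 8 regulators of surfactant genes, 3 rose and 1 fell in combined lungs against air, where 11.6% of genes tested rose and 10.8% fell. The number called was 2 to 5 with 1 library left out, lowest without combined 3. Nkx2-1, the homeobox factor named above, had 83.6, 113 and 173 CPM (lowest, median and highest) in combined, 71.7, 92.1 and 118 CPM in silica, 79.5, 112 and 164 CPM in smoke and 53.6, 61.9 and 75.2 CPM in air lungs. The combined minus air log2 difference was 0.92 ± 0.18 (edgeR adjusted p = 0.000373), with no overlap. Smoke exceeded air by 0.87 ± 0.18 (edgeR adjusted p = 0.0375), the one regulator called in smoke lungs, where 0.15% of genes tested were. That call was lost without silica 1, smoke 1 and smoke 2 (adjusted p = 0.0588), with only the 12 smoke and air libraries (0.0806) and without any 1 of air 3, 4 or 5, silica 4 or 5 and smoke 1, 3 or 4 (up to 0.188). Cebpa, a leucine zipper factor of lung epithelium, rose by 0.71 ± 0.13 in combined against air (edgeR adjusted p = 0.000285) and Srebf1, a regulator of lipid synthesis, by 0.34 ± 0.12 (0.0341). Klf5 fell by 0.41 (edgeR adjusted p = 0.0231). The Srebf1 and Klf5 calls were lost with DESeq2 (adjusted p = 0.15 and 0.0813), and without any 1 of air 3 or 5 and combined 1, 3 or 6 for Srebf1 (up to 0.0865) or air 1 or 4 and combined 2 or 3 for Klf5 (up to 0.0720).

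Of 12 genes of phospholipid and fatty acid synthesis, 5 rose in combined lungs against air and 0 fell, again beside 11.6% of genes tested that rose and 10.8% that fell. Fasn, fatty acid synthase, rose by 0.76 ± 0.21 (edgeR adjusted p = 0.00933), Acly, which supplies acetyl-CoA, by 0.41 ± 0.10 (0.00319), and Elovl1, a fatty acid elongase, by 0.41 ± 0.11 (0.0062). Acaca and Chka rose by 0.30 ± 0.08 and 0.28 ± 0.10, and both calls were lost with DESeq2 (adjusted p = 0.071 and 0.274). The Chka call was also lost without any 1 of air 3, 4 or 6 and combined 2, 3 or 6 (up to 0.122). Pcyt1a, the rate-limiting enzyme of phosphatidylcholine synthesis, was not called at 0.10 ± 0.09 (edgeR adjusted p = 0.46). In silica and in smoke lungs 0 of the 12 were called against air by edgeR, DESeq2 or limma voom. In edgeR 3.17% of genes tested were called in silica and 0.15% in smoke lungs. An unadjusted p under 0.05 in edgeR was found for 1 of the 12 in silica and 0 in smoke lungs. The share of all genes at that threshold was not counted. Without silica 1, smoke 1 and smoke 2, 1 of the 12 was called in silica lungs, where 11.8% of genes tested were.

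Of 11 genes of lamellar body protein processing and trafficking, 4 rose in combined lungs against air, where 11.6% of genes tested did, and 0 fell. Ctsh, the cathepsin that takes part in cutting SP-B and SP-C precursors, had 911, 1114 and 1216 CPM in combined, 361, 883 and 947 CPM in silica, 399, 419 and 740 CPM in smoke and 324, 448 and 529 CPM in air lungs. Combined exceeded air by 1.31 ± 0.18 (edgeR adjusted p = 1.04e-05) and silica exceeded air by 0.85 ± 0.18 (edgeR adjusted p = 0.00954). Silica 1 held the lowest silica value and lay within the air range, and smoke 1 the highest smoke value. Cd63, a tetraspanin of lamellar bodies and lysosomes, rose by 0.74 ± 0.14, Lamp1 by 0.46 ± 0.11 and Snap23, a membrane fusion protein, by 0.33 ± 0.10 in combined against air. The Snap23 call was lost with DESeq2 (adjusted p = 0.0807) and without air 6 (0.0548).

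**Figure D4:**
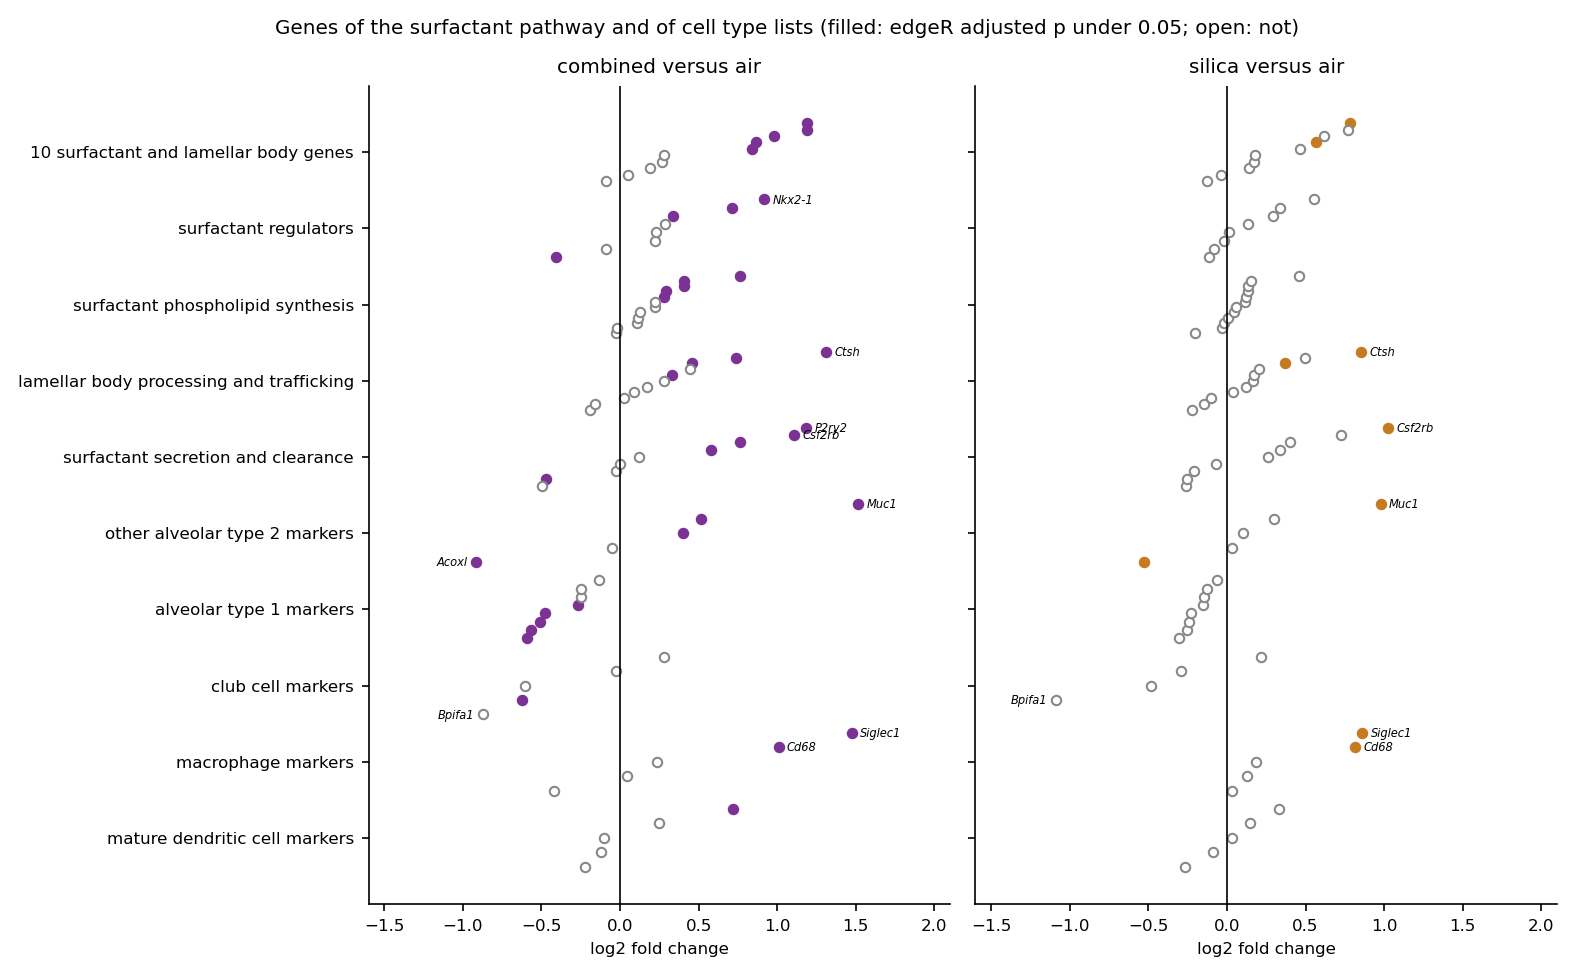
Log2 fold change of every tested gene (points) of the surfactant pathway lists and of marker lists of other cell types, for combined against air and silica against air; filled points have an adjusted p under 0.05. For combined against air, Ctsh of the processing list lies at 1.31 and Prdx6 of the clearance list at -0.47, and Acoxl of the other type 2 markers at -0.92.

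Of 9 genes of surfactant secretion and clearance, 4 rose and 1 fell in combined lungs against air, where 11.6% of genes tested rose and 10.8% fell. P2ry2, the nucleotide receptor that triggers lamellar body exocytosis, rose by 1.18 ± 0.20 (edgeR adjusted p = 0.000101), with 45.1 to 79.5 CPM in combined and 19.1 to 35.5 CPM in air lungs. Csf2rb and Csf2ra, the receptor chains through which GM-CSF drives clearance by macrophages, rose by 1.10 ± 0.18 and 0.76 ± 0.16. Abcg1, a lipid exporter, rose by 0.58 ± 0.14, and Prdx6, an antioxidant enzyme with phospholipase activity, fell by 0.47 (edgeR adjusted p = 0.000226). In silica lungs, where 3.17% of genes tested were called, Csf2rb was the one gene of these called, at 1.02 ± 0.18 (edgeR adjusted p = 0.0024). Csf2, which encodes GM-CSF, was not called at 0.12 ± 0.30. Adgrf5, the most abundant of the 9, was also not called in combined lungs against air. It had 1452 to 2218 CPM in combined and 2616 to 2753 CPM in air lungs. The summed level of the 9 was lower in combined lungs, at 2488 to 3118 CPM, than in air lungs, at 3375 to 3673 CPM.

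Other markers of type 2 cells went in both directions. Of 5 tested, 3 rose and 1 fell in combined lungs against air, where 11.6% of genes tested rose and 10.8% fell. Muc1, a membrane mucin, rose by 1.52 ± 0.22 (edgeR adjusted p = 2.11e-05), with 177 to 324 CPM in combined and 50.1 to 129 CPM in air lungs, and Cldn18 and Lgi3 rose by 0.52 ± 0.18 and 0.40 ± 0.14, calls lost with DESeq2 (adjusted p = 0.0746 and 0.0527). The Cldn18 call was also lost without any 1 of air 3 and combined 1, 3, 5 or 6 (up to 0.0669), and the Lgi3 call without any 1 of air 1, 3 or 6 and combined 3 or 6 (up to 0.0914). Acoxl fell by 0.92 (edgeR adjusted p = 1.59e-05), with 27.4 to 40.3 CPM in combined and 55.5 to 74.6 CPM in air lungs. Their summed level was 1536 to 2002 CPM in combined, 1169 to 1723 CPM in silica, 1265 to 1512 CPM in smoke and 771 to 1465 CPM in air lungs.

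Markers of other lung cells moved in the same samples, and their part in the differences above was not tested. The counts stand beside 10.8% of genes tested that were called lower and 11.6% higher. Of 8 alveolar type 1 markers 5 fell in combined lungs against air, with a summed level of 4148 to 4343 CPM in combined and 5211 to 5945 CPM in air lungs. Of 5 club cell markers 1 fell, Scgb3a2 (-0.63, edgeR adjusted p = 0.0497), a call kept in 6 of 24 fits that left out 1 library, and sums of 1103 to 2594 CPM in combined and 1504 to 2615 CPM in air lungs overlapped. Of 6 endothelial markers 4 fell. Of 4 ciliated cell markers 2 fell, Foxj1 and Tppp3, and Tppp3 was called in 15 of 24 fits that left out 1 library (adjusted p up to 0.0835). Of 3 fibroblast markers 2 fell, Pdgfra and Col1a1, and Col1a1 was called in 10 of those 24 fits, with a log2 difference of -0.98 ± 0.35 that ran from -1.17 to -0.13 (without air 6) and an adjusted p up to 0.698. Of 2 proliferation markers 1 rose, Mki67, called in 17 of the 24. All 4 neutrophil markers rose, with sums of 377 to 825 CPM in combined and 77.8 to 139 CPM in air lungs. Of 5 macrophage markers tested 2 rose, Siglec1 by 1.47 ± 0.18 and Cd68 by 1.01 ± 0.22, with sums of 687 to 810 CPM in combined and 465 to 748 CPM in air lungs. The other 3 were not called. Adgre1 had a median of 15.8 CPM in combined and 20.7 CPM in air lungs, Csf1r 227 and 221 CPM, and Mrc1 358 and 296 CPM. Marco did not pass the filter on low counts, with 0 counts in every air library and at most 0.939 CPM in combined lungs. In silica lungs the neutrophil sum was 116 to 659 CPM, and the lowest was silica 1.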

How the data were processed

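Values are raw counts of reads per gene in 24 columns, as the authors deposited them, with no scaling. The submitters' processing notes name HISAT2 2.1.0 and HTSeq 0.11.2, with Trimmomatic 0.35, SAMtools 1.8, bcl2fastq 2.19 and Cufflinks. Genome build, annotation and strand setting: not given in the sources used here. The labels' protocols describe RNA depleted of ribosomal RNA and a stranded kit. The table had 30069 lines, of which 26 repeated another line and were removed.

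The 10 genes, the gene lists and the alternatives were chosen with earlier results of these data known. Symbols were matched through a RefSeq table of assembly GRCr8. Genes were named by rule: all 10, the 3 other genes ranked most like each by Spearman's rho of log2 CPM (prior count 2), and list members called in a comparison described.

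In R 4.3.3, edgeR 4.0.16 kept 13322 genes (filterByExpr, minimum count 10) and fitted 1 quasi-likelihood model to all 24 libraries, scaled by TMM, with a mean per group and 20 residual degrees of freedom. Tests were two-sided, with Benjamini-Hochberg adjusted p under 0.05 called. Each standard error was derived from its test, as the size of the log2 difference over the root of F. The fit was tested on simulated data. Alternatives were other scalings, no filter, DESeq2 1.42.0, limma 3.58.1 (voom with quality weights), only the libraries compared, each library left out, and 3 or 4 libraries left out together.

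Replicate numbers are the order of deposit. Each animal is 1 library per the labels, and between libraries of the same group chi-square over its degrees of freedom was 1.73 or more, so no pair agreed within sampling noise. In a library, 3 counts stand at 0.615 CPM in air 6, 10.8 CPM in silica 4 and 159 CPM in smoke 2, so smoke 2 carries little information on any of the 10 genes.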

Additional observations from a re-analysis of the deposited data

Results flagged for a closer look

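In 40 sets of 6 libraries (10 genes in 4 groups), the gap of the highest or lowest library to the nearest other, over the group's range, passed Dixon's 95% critical value for 6 samples in 9. For a single set of normally distributed values chance gives about 1 in 20. The sets are not separate trials, because the 10 genes are read in the same libraries and vary together. The 9 of 40 cannot be read against that rate. Smoke 2 accounts for 4 of the 9: it had 212 CPM of Sftpb, where the other 5 smoke lungs had 2070 to 2370 CPM, 424 CPM of Sftpc against 4850 to 6186 CPM, 106 CPM of Abca3 against 714 to 865 CPM and 318 CPM of Slc34a2 against 1924 to 2168 CPM. These values rest on 2 to 8 counts each. The library labelled silica 1 accounts for 2, with 4904 CPM of Sftpa1, where the other 5 silica lungs had 10036 to 12177 CPM, and 4345 CPM of Sftpc against 7091 to 8206 CPM. Its Sftpa1 level lies within the air range. The other 3 are Sftpd in combined 6 (1938 CPM, the others 1369 to 1555 CPM), Abca3 in combined 3 (1067 CPM, the others 909 to 952 CPM) and Napsa in air 6 (157 CPM, the others 256 to 306 CPM). Why these libraries stand apart was not tested.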

How the results depend on the processing

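Sftpa1, Sftpd, Lamp3, Lpcat1 and Napsa were called higher in combined lungs than in air and than in smoke lungs under every alternative run. With 1 library left out the number of the 10 genes called was 5 to 7 for combined against air and 1 to 4 for silica against air. For silica against air it was also 4 with limma voom and quality weights, 1 with only the 12 libraries compared, and 5 without silica 1, smoke 1 and smoke 2, with or without air 6 as well. For combined against silica it was 1 without those 4 libraries. The cause was not tested. Silica 1 and smoke 1 were singled out by their levels of the genes that rose, so the fits without them are not independent support. No paired analysis was possible because replicate numbers are the order of deposit and pair nothing. Over all genes, silica against air gave 148 higher and 41 lower calls in DESeq2, 80 and 11 with 12 libraries and 577 and 332 in limma voom, against 287 and 135.

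Differences that turned sign were all small and not called. With limma voom they were -0.026 for Sftpd, -0.026 for Lpcat1 and -0.00047 for Etv5 (smoke against air), -0.0072 for Sftpb (combined against air) and -0.038 for Sftpc (combined against silica). Without the 3 libraries they were -0.043 for Sftpd, -0.073 for Lpcat1 and 0.092 for Slc34a2 (smoke against air), -0.097 for Sftpc (combined against silica), and -0.014 for Lamp3, -0.045 for Slc34a2 and -0.091 for Etv5 (interaction). Without the 4 they were -0.096 for Sftpd, -0.071 for Napsa, -0.093 for Lpcat1 and 0.028 for Slc34a2 (smoke against air), -0.016 for Sftpb (combined against air), -0.099 for Sftpc (combined against silica) and -0.0020 for Etv5 (interaction, -0.00027 with upper quartile scaling).

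With 1 library left out, smoke minus air ran from -0.35 to 0.057 for Sftpa1, -0.095 to 0.14 for Sftpd, -0.11 to 0.070 for Lpcat1, -0.089 to 0.084 for Slc34a2 and -0.050 to 0.10 for Etv5. Combined minus silica ran from -0.095 to 0.063 for Sftpc and -0.0031 to 0.072 for Etv5. For Sftpb, combined minus air ran from -0.018 to 0.12 and silica minus air from -0.10 to 0.021. The interaction ran from -0.11 to 0.16 for Lamp3 and -0.064 to 0.088 for Etv5. Depth limits what smoke 2 and, for low genes, silica 4 can show.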
